A study of Saccharomyces cerevisiae with 12 samples.

Results

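The Ssa proteins are the cytosolic Hsp70 chaperones of the budding yeast Saccharomyces cerevisiae, and 4 genes encode them: SSA1 (YAL005C), SSA2 (YLL024C), SSA3 (YBL075C) and SSA4 (YER103W). They were taken from the deposited table by gene symbol, 4 of its 5045 genes, and all 4 of 4 passed the filter on low values that left 4937 genes for testing. All 12 polyA RNA libraries were made from the strain labelled Sis1-AA in YPD medium, and no time point had a replicate. In the heat shock course cells went from 30 °C to 39 °C. In the rapamycin course cells received 1 µM rapamycin, which in an anchor-away strain pulls the tagged J-domain protein Sis1 out of the nucleus. Each course held its own untreated library and libraries at 15, 30, 60, 90 and 120 min, and the heated cells carried the same anchor-away strain without rapamycin. The labels do not give the other alleles of the strain, or a temperature for the rapamycin libraries, and the strain was not compared with an unmodified one.

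An Hsp70 binds exposed hydrophobic stretches of unfolded proteins in a cycle of ATP hydrolysis. J-domain proteins such as Sis1 and Ydj1 bring substrates and start hydrolysis, and nucleotide exchange factors such as Fes1 and Sse1 reset the chaperone. Ssa1 and Ssa2 are the forms of growing cells, and Ssa3 and Ssa4 are known as stress-inducible forms. The transcription factor Hsf1 drives many chaperone genes through heat shock elements, arrays of GAA units in alternating orientation. Ssa proteins with Sis1 bind Hsf1 and hold it back in unstressed cells, so the SSA genes are both targets and regulators of the same factor. Msn2 and Msn4 are a separate pair of stress factors that bind AGGGG, the stress response element.

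On the R64 assembly (RefSeq; sacCer3 is the UCSC name of this build), SSA1 lay on chromosome I at 139503 to 141431, minus strand. SSA2 lay on chromosome XII at 95566 to 97485, minus strand, and SSA3 on chromosome II at 84499 to 86448, minus strand. SSA4 lay on chromosome V at 364589 to 366517, plus strand. Each was annotated as 1 coding exon, of 1929, 1920, 1950 and 1929 bases in that order, and 0 annotated genes overlapped it. The upstream stretches below, from 370 to 71 bases before each start codon, are shown because the 4 genes encode closely related chaperones but differ in their response, and the elements of both factors were searched for there. Capitals mark the fixed bases of perfect heat shock elements of at least 2 units, and each line reads 5′ to 3′ on the strand of the gene.
SSA1, I:141502-141801, minus strand: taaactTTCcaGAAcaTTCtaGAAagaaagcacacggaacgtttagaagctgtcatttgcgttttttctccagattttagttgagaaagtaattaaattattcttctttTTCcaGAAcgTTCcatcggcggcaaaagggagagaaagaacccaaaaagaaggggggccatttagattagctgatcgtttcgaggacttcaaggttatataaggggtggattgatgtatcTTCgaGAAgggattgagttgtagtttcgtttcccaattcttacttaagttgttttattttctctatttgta
SSA2, XII:97556-97855, minus strand: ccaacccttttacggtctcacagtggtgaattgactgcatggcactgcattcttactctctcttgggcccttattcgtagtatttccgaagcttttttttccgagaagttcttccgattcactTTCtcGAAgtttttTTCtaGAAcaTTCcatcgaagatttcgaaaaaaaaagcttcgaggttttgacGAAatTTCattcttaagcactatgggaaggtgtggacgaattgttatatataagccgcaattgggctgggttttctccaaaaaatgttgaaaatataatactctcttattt
SSA3, II:86519-86818, minus strand: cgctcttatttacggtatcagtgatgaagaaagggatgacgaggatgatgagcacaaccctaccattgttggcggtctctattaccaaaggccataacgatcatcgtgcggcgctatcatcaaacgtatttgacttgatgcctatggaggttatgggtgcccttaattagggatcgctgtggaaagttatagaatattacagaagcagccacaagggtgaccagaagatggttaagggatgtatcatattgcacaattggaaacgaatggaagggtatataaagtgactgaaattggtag
SSA4, V:364219-364518, plus strand: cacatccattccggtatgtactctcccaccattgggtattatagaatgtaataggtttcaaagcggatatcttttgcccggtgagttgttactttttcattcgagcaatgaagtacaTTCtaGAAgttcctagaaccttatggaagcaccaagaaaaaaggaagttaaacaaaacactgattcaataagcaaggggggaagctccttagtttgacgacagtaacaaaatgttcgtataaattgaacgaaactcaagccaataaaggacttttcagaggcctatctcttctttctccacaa

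The 4 promoters differed in these letters. The 3-unit heat shock element was searched on both strands as GAANNTTC followed directly by NNGAA, the 2-unit forms as GAANNTTC and TTCNNGAA, and matches may overlap. SSA1 held 3 perfect 3-unit elements, which began 364, 359 and 261 bases before the start codon, and the first pair overlap. All 3 lay outside the window of 250 bases first chosen, and the window of 500 bases was added after the data were seen. SSA2 held 1, at 233 bases. SSA3 and SSA4 held 0 perfect 3-unit elements in the 500 bases before the start codon. Over all 6000 promoters of that length, 1.48% held one.

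SSA4 had 1 perfect TTCNNGAA at 253 bases, inside a run of 4 overlapping 3-unit elements with 1 mismatch each, at 258, 253, 248 and 238 bases. SSA3 had 2 elements with 1 mismatch, at 189 and 179 bases, and no 2-unit form. Allowing 1 mismatch was, like the window of 500 bases, not in the first plan. With 1 mismatch allowed, 21.2% of all promoters of 500 bases matched. In the window from 250 bases before to 50 after the start codon, the stress response element AGGGG stood at 211 and 160 bases before SSA1 and at 179 bases before SSA4. The letters TATAAA stood there at 93 bases before SSA3, at 136 before SSA4 and at 22 and 8 before SSA2. They were searched on both strands, and no other form of the TATA element was searched. Of 6001 such windows, 21.6% held AGGGG, 45.2% TATAAA, 11.8% GAANNTTC, 12.9% TTCNNGAA and 0.78% the perfect 3-unit element. The TTCNNGAA of SSA4 at 253 bases lay outside this window. Of the promoters of 500 bases, 21.2% held TTCNNGAA and 19.2% GAANNTTC. These matches are letters in a window, and binding was not measured.

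The transcripts of SSA1 and SSA2 are hard to tell apart. Their coding sequences were 96.4% identical, with a longest shared run of 383 bases, and their proteins differed at 15 positions. Of all 50-base windows, 57.9% of those of SSA1 and 58.2% of those of SSA2 also occurred elsewhere in the genome, and for 100-base windows the shares were 45.8% and 46.0%. No window of SSA3 or SSA4 of either length occurred elsewhere. SSA3 and SSA4 were 76.6% identical to each other in coding sequence, and 73.6% to 74.3% to the other pair. How the authors treated reads that map to both SSA1 and SSA2 is not given in the sources used here, so the split between these genes is uncertain, and their sum is given beside the separate values.

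The libraries held 2991418 to 4379304 reads assigned to listed genes. FPR1, whose product binds rapamycin and makes it toxic to wild-type cells, had 0 to 4 reads in each of the 12 libraries. SIS1 mRNA was at 670.3 and 443 in the untreated libraries, and HSF1 mRNA stayed between 396 and 687 over all 12. An mRNA level does not report where the Sis1 protein is. The untreated libraries differed from each other with an SD of 0.33 over genes on the log2 scale. All values are relative to the library they come from, so more transcript per cell and less of all other RNA cannot be told apart.

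Before treatment SSA2 supplied most of the Ssa message, and in both courses the make-up of the message changed. Per kb of coding sequence, SSA2 was 83.7% of the summed SSA1 to SSA4 value in the untreated heat shock library and 80.7% in the untreated rapamycin library. SSA1 was 8.85% and 10.1%, SSA4 4.72% and 5.32%, and SSA3 2.76% and 3.93%. The order SSA2, SSA1, SSA4, SSA3 was thus the same in both untreated libraries.

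**Figure D1:**
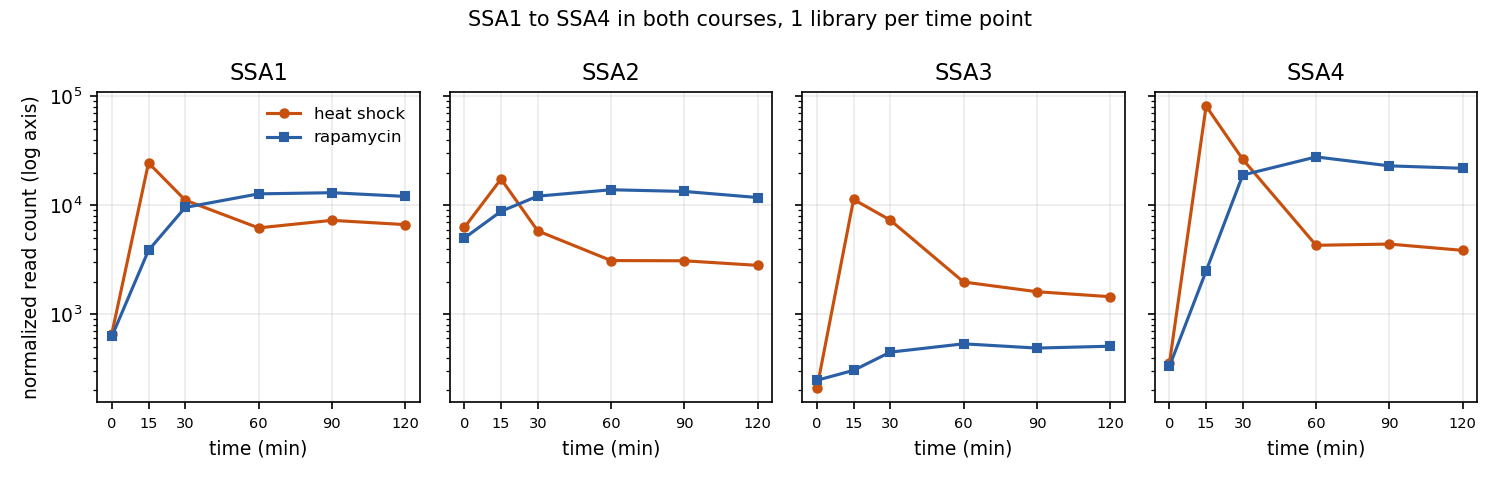
Deposited normalized read count (log axis) of each SSA gene against time in min, with heat shock as circles and rapamycin as squares and 1 library per point. All 4 genes peak at 15 min of heat, whereas with rapamycin they are highest at 60 or 90 min. SSA3 reaches 536 with rapamycin against 11339 in heat.

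SSA4 encodes a stress-inducible form and is a standard reporter of Hsf1 activity. In heat its normalized read count was 355 untreated, then 81563, 26477, 4303, 4415 and 3863 at 15, 30, 60, 90 and 120 min. In the rapamycin libraries it was 332 untreated, then 2498, 19008, 27861, 23062 and 21908.5. All 10 treated libraries lay above both untreated ones, with the highest at 15 min of heat. The 15 min heat value was 230-fold the untreated one (95% counting interval 203 to 261), and the 60 min rapamycin value 83.8-fold (75.5 to 93.4). These intervals, exact Clopper-Pearson ones on the recovered reads, cover counting error only, here and below.

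From 15 to 60 min the SSA4 responses moved in opposite directions. Both were lower at 120 than at 60 min, 3863 after 4303 in heat and 21908.5 after 27861 with rapamycin. At 120 min of heat the level was 21.1-fold lower than at 15 min (counting interval 20.5 to 21.7), and it was already near its late level at 60 min. Over the same interval with rapamycin it was 8.77-fold higher at the end (8.43 to 9.13), with a step of 7.61-fold between 15 and 30 min. At 15 min the heated library stood 32.6-fold above the rapamycin one (31.4 to 33.9), and at 60 min the rapamycin library stood 6.48-fold above the heated one (6.29 to 6.67). Among the 4937 tested genes, the log2 change of SSA4 with rapamycin ranked 4 at 15 min and 1 at 30, 60, 90 and 120 min.

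SSA1, one of the forms present during growth, followed the same course with a smaller range. In heat it was at 666 untreated, then 24573, 11178, 6215, 7291 and 6660.4 at 15, 30, 60, 90 and 120 min. With rapamycin it was at 628 untreated, then 3869, 9579.8, 12760.0, 13077 and 12094. Again all 10 treated libraries exceeded both untreated ones. The largest ratio in heat was 36.9 at 15 min (counting interval 33.7 to 40.5), and with rapamycin it was 20.8 at 90 min (19.3 to 22.6). The late heat values stayed near 10-fold, from 9.33 at 60 min to 10.9 at 90 min.

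SSA2, the main form of growing cells, behaved differently in the late heat libraries. In heat it was at 6269 untreated, then 17465, 5833, 3116, 3100.4 and 2814. The 15 min library was 2.79-fold the untreated one (counting interval 2.69 to 2.88), and those at 60, 90 and 120 min were at 0.497, 0.495 and 0.449 of it. With rapamycin SSA2 was at 5014 untreated, then 8826, 12157, 13917, 13429 and 11808, all above both untreated libraries. Its highest ratio there was 2.78 at 60 min (2.69 to 2.86).

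The height of the late SSA2 values in heat depended on the scaling. At 120 min the log2 change was −1.16 with the deposited scaling, −0.67 with libraries scaled to equal totals and −0.18 after quantile normalization. At 30 min it was −0.10, and it turned to 0.07, 0.38 and 0.22 with equal totals, quantile normalization and the other untreated library. The untreated libraries themselves differed 1.25-fold for SSA2 (counting interval 1.20 to 1.30). For SSA1, SSA3 and SSA4 the intervals of this ratio included 1.

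SSA3, known also as a gene of cells running out of glucose, was the lowest of the 4 before treatment. In heat it was at 209.6 untreated, then 11339, 7326, 1979.9, 1612 and 1451. With rapamycin it was at 248 untreated, then 306, 449.6, 536, 489.9 and 509.5. The lowest treated heat value, 1451, exceeded the highest rapamycin value, 536. How many of all genes separate the courses in this way was not counted. The 15 min heat library was 54.1-fold the untreated one (counting interval 46.0 to 64.1), and the highest rapamycin ratio was 2.16 at 60 min (1.86 to 2.51).

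SSA3 was higher in heat than with rapamycin at all 5 times. From 15 to 120 min the ratios were 37.1 (counting interval 33.2 to 41.4), 16.3, 3.69, 3.29 and 2.85 (2.59 to 3.13). The corresponding ratios of the other genes started above 1 and ended below it. For SSA1 they ran from 6.35 at 15 min to 0.551 at 120 min, and for SSA2 from 1.98 to 0.238. SSA1 crossed between 30 and 60 min, where the ratios were 1.17 and 0.487, and so did SSA4, with 1.39 and 0.154. SSA2 crossed earlier, with 0.48 at 30 min.

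**Figure D2:**
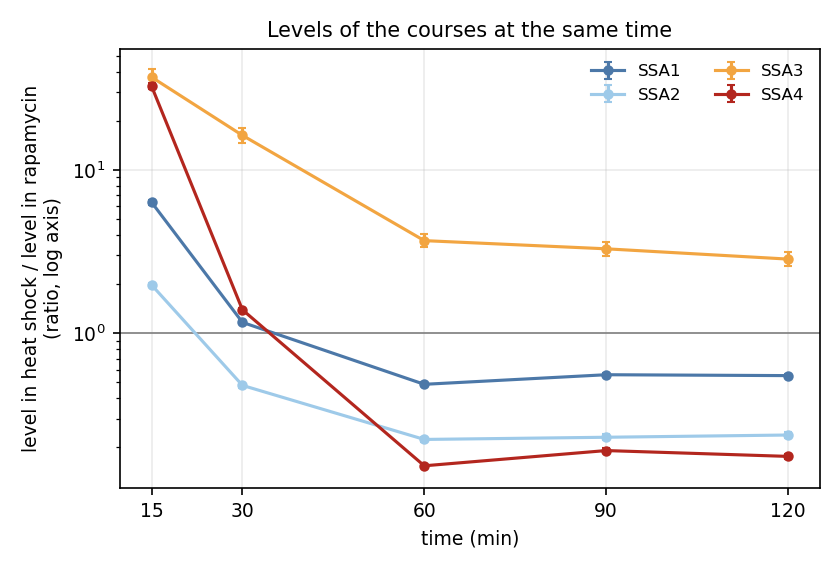
Ratio of the heat shock level to the rapamycin level at the same time (log axis) against time in min, 1 line per gene, with bars for the 95% counting interval. The SSA3 line stays above 1, from 37.1 to 2.85, while those of SSA1, SSA2 and SSA4 pass below 1.

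These separate courses changed which gene supplied the Ssa message. At 15 min of heat SSA4 was 60.5% of the summed value per kb, SSA1 18.2%, SSA2 13.0% and SSA3 8.32%. By 120 min of heat SSA1 led with 45.0%, ahead of SSA4 with 26.1%, SSA2 with 19.1% and SSA3 with 9.71%. SSA3 reached its largest share, 14.3%, at 30 min of heat. With rapamycin SSA2 still led at 15 min with 57.1%. In the deposited values SSA4 led from 30 min, with 50.5% at 60 min and 47.2% at 120 min. From 60 min of rapamycin SSA1 and SSA2 had similar shares, 23.1% and 25.4% at 60 min and 26.1% and 25.6% at 120 min, and without replicates their order is not settled. SSA3 was 0.962% at 60 min and 1.09% at 120 min of rapamycin.

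**Figure D3:**
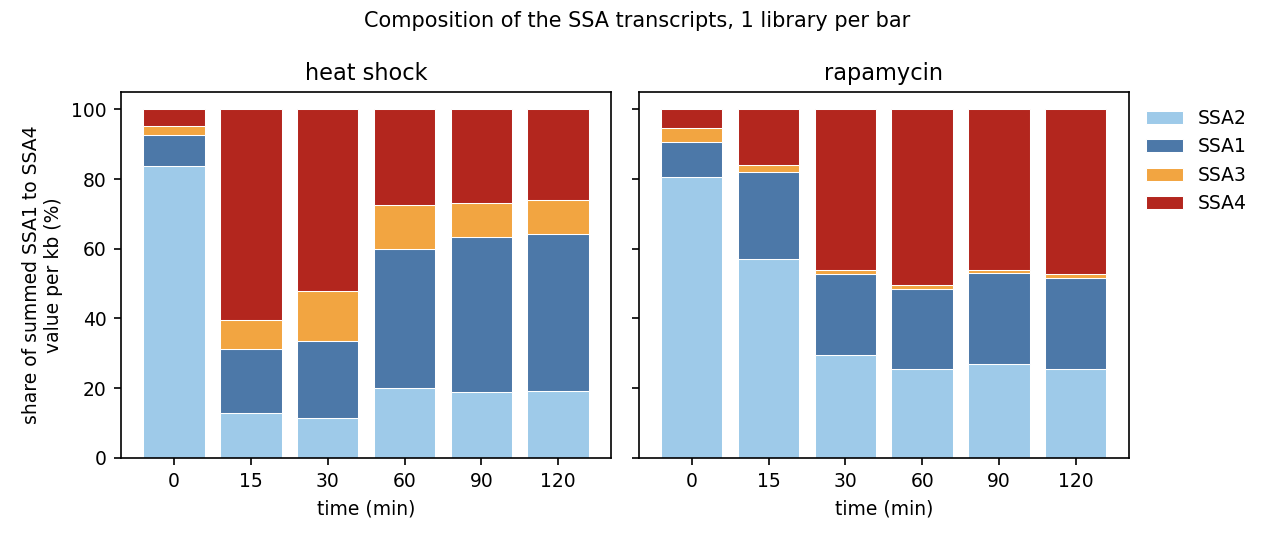
Share of each SSA gene in the summed SSA1 to SSA4 value per kb of coding sequence (%), 1 bar per library, against time in min. SSA2 is 83.7% before and 13.0% at 15 min of heat, and SSA4 takes 60.5% there and 50.5% at 60 min of rapamycin.

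The summed share of SSA1 and SSA2 does not depend on how shared reads were split between them. If such reads were dropped, it would be too low, and so would every share of theirs above. The order of SSA2 and SSA4 could then differ late in heat and from 30 min of rapamycin. Together they made up 92.5% of the value per kb before heat, and 31.2%, 33.6% and 64.2% after 15, 30 and 120 min of it. With rapamycin the sum went from 90.7% to 48.5% at 60 min and 51.7% at 120 min. Their summed level was 6.06-fold the untreated one at 15 min of heat and 1.37-fold at 120 min, against 2.25-fold at 15 min and 4.73-fold at 60 min of rapamycin.

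All 4 genes together also took a larger part of the library. The reads of SSA1 to SSA4 were 0.176% of all assigned reads before heat (Clopper-Pearson 95% interval 0.171% to 0.181%), 3.08% at 15 min (3.06% to 3.10%) and 0.485% at 120 min. With rapamycin they were 0.15% untreated, 1.41% at 60 min (1.40% to 1.42%) and 1.24% at 120 min. The summed value per kb was at most 17.9-fold the untreated one in heat and 8.83-fold with rapamycin. If reads shared by SSA1 and SSA2 were dropped, these rises, and those in the share of reads, would be too large. The pair made up 92.5% of the value per kb before heat and 31.2% at 15 min, so the untreated sum would lose most. Relative to the ribosome-bound Hsp70 genes SSB1 and SSB2, whose products fold new chains, the summed value per kb was 0.288 before heat, 145 at 15 min and 3.3 at 120 min. The denominator moved with it, since the SSB value per kb was 13541 before heat, 482 at 15 min and 2323 at 120 min. With rapamycin this ratio was 0.269 untreated and 3.4 at 60 min. The ratio carries the same limit of shared reads, and stretches shared by SSB1 and SSB2 were not searched for.

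The tests used 1 limma fit over all 12 libraries on log2(value + 1). For each course it estimated a mean change over the 5 treated times against the untreated library. It also estimated a slope, the log2 change for each doubling of the treatment time. A gene was called at a Benjamini-Hochberg adjusted p under 0.05 over the 4937 genes. The residual measures departure from a straight line in log2 time, pooled over both courses, and not the spread between cultures. With equal library totals the median log2 change of all genes in a library was −0.09 to 0.39, where it was −0.09 to −0.03 as deposited. The share of called genes that lay above 0 moved with it, from 46.6% to 60.3% for the heat mean change and from 47.0% to 64.9% for the rapamycin one. It moved from 47.2% to 58.8% for the difference of the mean changes, from 52.7% to 85.5% for the heat slope, from 45.7% to 64.1% for the rapamycin slope and from 55.4% to 78.2% for the difference of the slopes.

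In heat SSA1, SSA3 and SSA4 rose and SSA2 was not called, so 3 of 4 were called above 0 where 32.6% of all tested genes were. The mean log2 change was 4.94 ± 0.70 (SE) for SSA4 (limma adjusted p 0.000108), 3.97 ± 0.26 for SSA3 (5.69e-07) and 3.85 ± 0.36 for SSA1 (6.39e-06), each with 5 of 5 treated libraries above the untreated one. SSA2 had −0.36 ± 0.32 (limma adjusted p 0.338), with 4 of 5 libraries below the untreated one, and 37.2% of all genes were called below 0. Without the 15 min heat library SSA2 was called, at −0.60 (limma adjusted p 0.0462). Summed with SSA1 to 1 row it turned to 1.07 ± 0.36 (limma adjusted p 0.0215).

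With rapamycin all 4 of 4 rose, where 12.3% of all tested genes were called above 0 and 13.9% below. SSA4 had the largest mean change of the 4937 genes, 5.46 ± 0.70 (SE; limma adjusted p 0.00118), and SSA1 ranked 3 with 3.91 ± 0.36 (0.000393). SSA2 had 1.24 ± 0.32 (limma adjusted p 0.0197) and SSA3 0.86 ± 0.26 (0.0351). Summed to 1 row, SSA1 and SSA2 had 1.93 ± 0.36 (limma adjusted p 0.00486). Each gene was above its untreated library at 5 of 5 times. The SSA3 call was the least firm, since it was lost without the 90 min heat library or without the 30, 60, 90 or 120 min rapamycin library (limma adjusted p 0.0506 to 0.063). The SSA2 call was lost when the untreated libraries were exchanged between the courses, at 0.92 (limma adjusted p 0.0713).

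The mean changes of the courses differed for SSA2 and SSA3, in opposite directions. Heat shock minus rapamycin was 3.11 ± 0.36 for SSA3 (limma adjusted p 0.000153), where 21.7% of all genes were called above 0. It was −1.60 ± 0.46 for SSA2 (limma adjusted p 0.0152), where 24.2% were called below. The SSA2 difference was no longer called with SSA1 and SSA2 summed, at −0.86 (limma adjusted p 0.189), or with the untreated libraries exchanged, at −0.96 (0.102). For SSA1 the difference was −0.06 ± 0.51 (95% interval −1.20 to 1.08), and for SSA4 −0.51 ± 0.99 (−2.71 to 1.69), and these intervals leave room for differences of more than 1 on the log2 scale.

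**Figure D4:**
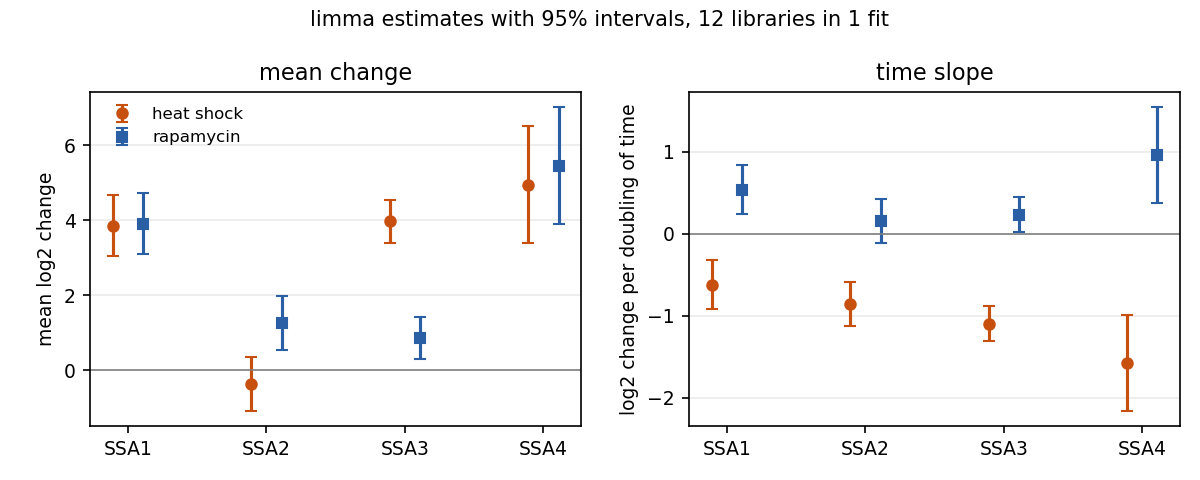
limma estimates of the mean log2 change (left) and of the slope in log2 change per doubling of time (right) for each SSA gene, with 95% intervals, heat shock as circles and rapamycin as squares. SSA3 separates the courses by mean change, 3.97 against 0.86, and all 4 slopes lie below 0 in heat and above 0 with rapamycin.

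The slopes separated the courses for every SSA gene. In heat all 4 of 4 fell over time, where 25.4% of all genes were called below 0. The slope per doubling of time was −1.57 ± 0.26 (SE) for SSA4, the lowest of the 4937 genes (limma adjusted p 0.000847), and −1.09 ± 0.10 for SSA3 (5.54e-05). For SSA2 it was −0.86 ± 0.12 (limma adjusted p 0.000359) and for SSA1 −0.62 ± 0.14 (0.00356). The SSA1 slope was not called without the 15 min heat library, at −0.35 (limma adjusted p 0.186), or after quantile normalization, at −0.17 (0.229).

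With rapamycin 2 of 4 were called rising over time, where 8.32% of all genes were called above 0. They were SSA4 with a slope of 0.96 ± 0.26 (SE; limma adjusted p 0.0328) and SSA1 with 0.54 ± 0.14 (0.025). SSA2 had 0.15 ± 0.12 (limma adjusted p 0.405) and SSA3 0.23 ± 0.10 (0.123). Both calls leaned on the 15 min library, without which the slopes were 0.10 for SSA4 (limma adjusted p 0.88) and 0.19 for SSA1 (0.599). SSA1 also lost the call without the 90 or the 120 min rapamycin library (0.54 and 0.67, limma adjusted p 0.0751 and 0.0524). SSA4 lost it without the 90 or the 120 min rapamycin library (0.99 and 1.22, limma adjusted p 0.0794 and 0.0588) or the 90 min heat library (0.96, limma adjusted p 0.0546).

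The difference of the slopes, heat shock minus rapamycin, was called below 0 for all 4 of 4, where 21.0% of all genes were. It was −2.53 ± 0.37 (SE) for SSA4, the lowest of all genes (limma adjusted p 0.000547), and −1.32 ± 0.14 for SSA3 (0.000143). For SSA1 it was −1.16 ± 0.19 (limma adjusted p 0.00103) and for SSA2 −1.02 ± 0.17 (0.0011). All 4 were called in each of the alternatives run, with a highest adjusted p of 0.0381 (limma, edgeR or DESeq2).

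Most other core targets of Hsf1 were called above 0 in each course. Of 16 such targets, 13 rose and 0 fell in heat, where 32.6% of all tested genes rose and 37.2% fell. With rapamycin 14 rose and 0 fell, beside 12.3% and 13.9% of all genes. FES1 and YDJ1 were called in neither course, and MBF1 was not called in heat. Their median mean changes were 1.96 and 1.98, beside −0.08 and −0.05 over all genes tested. The 3 with the largest changes in both courses were the small heat shock protein gene HSP42 (6.13 in heat and 4.41 with rapamycin), the Hsp90 gene HSP82 (4.82 and 3.79) and the disaggregase gene HSP104 (4.04 and 3.78). All 16 of 16 fell over time in heat, beside 25.4% of all genes. The difference of the mean changes, heat shock minus rapamycin, was called for 3 of 16. Of these, 2 lay above 0, HSP42 (1.72) and HSP78 (1.73), and 1 below, the latter lost with equal totals and after quantile normalization. The difference of the slopes was called below 0 for 16 of 16, as for every SSA gene, beside 21.0% of all genes.

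The targets of Msn2 and Msn4 separated the courses by mean change. Of 15 such genes 15 rose in heat with a median of 5.63, and 10 rose with rapamycin with a median of 0.94, beside 32.6% and 12.3% of all genes. This list, like the other gene lists, was chosen with earlier results of these data known, so its counts are descriptive. Heat minus rapamycin of the mean change was called above 0 for 15 of 15, beside 21.7% of all genes. It was called above 0 for SSA3 too, and for the Hsf1 targets HSP42 and HSP78. SSA3 held 0 AGGGG in the 500 bases before its start codon, where 34.1% of all promoters held at least 1. In that window SSA1 held 2, SSA2 0 and SSA4 3. Action of Msn2 or Msn4 on SSA3 was not tested. The difference of the slopes was called below 0 for 15 of 15 of these targets, beside 21.0% of all genes. The largest heat changes were those of the membrane protein gene HSP12 (7.90), the small heat shock protein gene HSP26 (7.61) and DDR2 (7.48). The largest with rapamycin were those of the trehalose synthase subunit gene TSL1 (1.77), the hexokinase gene HXK1 (1.28) and SOL4 (1.25). The 0.86 of SSA3 with rapamycin lay near the median of these genes, and its 3.97 in heat lay in the lower part of their range, 3.32 to 7.90.

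**Figure D5:**
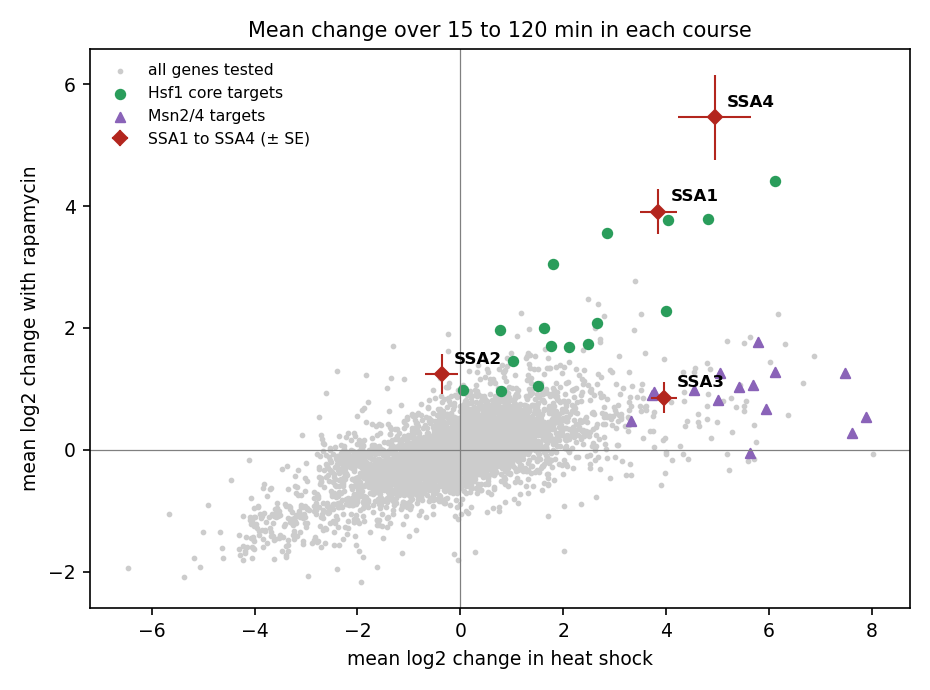
Mean log2 change with rapamycin against that in heat shock for all 4937 genes tested (grey), core Hsf1 targets (circles), Msn2/4 targets (triangles) and the SSA genes (diamonds, ± SE). SSA1 and SSA4 lie at 3.85 and 4.94 in heat and at 3.91 and 5.46 with rapamycin, while SSA3 lies at 3.97 and 0.86, by the Msn2/4 targets of smaller heat change.

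Of 11 J-domain partners of the Ssa proteins 3 rose and 4 fell in each course. In heat this is near the share of all genes, of which 32.6% rose and 37.2% fell, and with rapamycin 12.3% rose and 13.9% fell. Among those called, the largest changes in heat were those of JJJ3 (−2.68), JJJ1 (−2.27) and SIS1 (1.80), and with rapamycin those of SIS1 (3.04), APJ1 (1.55) and JJJ1 (−1.46). YDJ1, the main J-domain partner of the cytosol, had 0.06 in heat and 0.98 with rapamycin and was called in neither. Of 4 nucleotide exchange factors, the Hsp110 gene SSE2 rose (4.35 in heat and 0.95 with rapamycin) and SNL1 fell (−1.62 and −1.23). FES1 had 1.03 and 1.46 and SSE1 0.33 and 0.96, and neither was called. With equal totals 2 of these 4 factors rose in each course, and after quantile normalization 3 did. The calls over all tested genes have to be read beside these counts. With equal totals 3420 genes were called in heat, 60.3% of them above 0, and 1215 with rapamycin, 64.9% of them above 0. After quantile normalization 3330 were called in heat, 50.1% of them above 0, and 940 with rapamycin, 54% of them above 0.

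SSE2 had a pattern close to that of SSA3, with heat minus rapamycin of 3.40 ± 0.35 (limma adjusted p 6.96e-05) beside 3.11 ± 0.36. Of the 5 genes that link Hsp70 to Hsp90 or Hsp104, 4 rose and CNS1 fell in each course. As deposited, 32.6% of all genes rose and 37.2% fell in heat, and 12.3% rose and 13.9% fell with rapamycin. Besides HSP82 and HSP104, the adaptor gene STI1 had one of the 3 largest changes, 2.67 in heat and 2.08 with rapamycin. Of 10 other Hsp70 genes, 5 rose and 3 fell in heat, beside 32.6% and 37.2% of all genes. With rapamycin 3 rose and 1 fell, beside 12.3% and 13.9%. The fall (SSZ1, −0.74) was lost with equal totals and after quantile normalization. Among those called in heat, SSE2 was followed by the ribosome-bound forms SSB1 (−3.21) and SSB2 (−2.64). Among those called with rapamycin, the largest changes were those of KAR2 of the endoplasmic reticulum (2.0), SSC1 of the mitochondrion (1.28) and SSE2.

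The genes most like each SSA gene were sought over the 12 libraries, leaving out the other SSA genes. The measure was Pearson's r of log2(value + 1) over 4815 genes, and the libraries of a course share a time axis, so r is a description. By Spearman's rho only 1 of the 5 genes named for SSA1, 2 of those for SSA2, 0 of those for SSA3 and 3 of those for SSA4 were again among the top 5. Outside the SSA genes the highest r for SSA1 were those of HSP104 (0.985), BSC5 (0.982), HSP42 (0.969), the Cdc48 cofactor gene NPL4 (0.967) and KHA1 (0.961). For SSA4, again outside the SSA genes, NPL4 at 0.970 and HSP104 at 0.967 were followed by SIS1 (0.944), SSC1 (0.941) and HCH1 (0.935). SSA2 was most like YDJ1 (0.977), then the proteasome subunit genes RPN9 (0.961), PRE7 (0.953) and RPN3 (0.95), with the J-domain gene HLJ1 (0.958) among them. SSA3 was most like the photolyase gene PHR1 (0.993), LAP2 (0.992), RFS1 (0.991), the glyoxalase gene GLO1 (0.991) and the trehalose synthase subunit gene TPS3 (0.990).

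Among the SSA genes themselves the likeness depended on the course. SSA1 and SSA4 had the highest r over the 12 libraries, 0.967, with 0.952 within the heat course and 0.989 within the rapamycin course. SSA2 and SSA3 had −0.08 over the 12 libraries. In the 6 rapamycin libraries every pair had an r from 0.95 to 0.992. In the 6 heat libraries SSA3 and SSA4 had 0.992, whereas SSA1 and SSA2 had 0.284.

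The genes beside the SSA genes did not share one pattern. At 15 min of heat the log2 change was −0.65 for EFB1 upstream of SSA1 and −0.59 for ERP2 on its other side. It was 1.64 for POM33 upstream of SSA2 and 1.00 for PAU17, which was at 14.3 untreated. Beside SSA3 it was 1.35 for AAR2, whose end lies 273 bases upstream so that the far end of the printed stretch is inside it, and −2.33 for ILS1. Beside SSA4 it was −3.70 for RPS8B upstream and 0.94 for RTT105. At 60 min of rapamycin these 8 genes had log2 changes from −0.75 to 1.08, where SSA4 had 6.39.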

How the data were processed

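Per the labels' protocols, phenol-extracted polyA RNA went into NEBNext Ultra libraries. The submitters' processing notes name Bowtie, HTSeq and sacCer3; versions, strand use and the treatment of reads with several matches are not given in the sources used here. The authors deposited 1 table of normalized gene counts, a signal in which every value is a whole multiple of what 1 read is worth in its library. Divided by that step, 100.0% of the values lay within 0.05 of a whole read. The edgeR count test on those reads called 3405 genes for the heat mean change and 1331 for the rapamycin one, beside 3446 and 1296 in limma. A count of 3 reads equals 2.44 to 4.28 in the unit of the table.

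Here limma 3.58.1 (R 4.3.3) was run on log2(value + 1) for genes with a mean of at least 10 (108 left out), with eBayes and a trend. The fit had an intercept for each course, a step and a slope in log2 time, 6 residual and 4.29 prior degrees of freedom. This scale understates changes of low genes. No time point was replicated, so p-values carry no replicate check. Of the gene IDs, 5023 were found in RefSeq R64 and 22 were not. Promoter sequence and coordinates were read from RefSeq R64. Alternatives used edgeR 4.0.16, DESeq2 1.42.0, other scalings, pseudocounts, filters and baselines, and left out each treated library. The limma and edgeR tests of the mean changes were checked on simulated counts with constant steps over the treated times. Those counts held no trend in time, so the check did not cover the slopes. The named genes were the 4 members, the 5 genes outside the family most like each, the 3 called genes of each list with the largest changes in each course, the neighbouring genes, and SIS1, HSF1 and FPR1. YDJ1, FES1, SSE1, CNS1, MBF1, SSZ1 and HSP78 were added after their values were seen. The members and lists were chosen with earlier results of these data known.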

Additional observations from a re-analysis of the deposited data

Results flagged for a closer look

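Effects that differed between the courses by a test of the difference itself, heat shock minus rapamycin in limma, are collected here. Mean changes differed by 3.11 ± 0.36 (SE) for SSA3 and by −1.60 ± 0.46 for SSA2 (limma adjusted p 0.000153 and 0.0152). Slopes per doubling of time differed by −2.53 ± 0.37 for SSA4, −1.32 ± 0.14 for SSA3, −1.16 ± 0.19 for SSA1 and −1.02 ± 0.17 for SSA2 (limma adjusted p 0.000143 to 0.0011). The differences for SSA1 and SSA2 carry the uncertain split of their reads. Summed to 1 row they differed by −1.01 ± 0.19 in slope (limma adjusted p 0.00203) and by −0.86 in mean change, which was not called.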

How the results depend on the processing

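The 4 slope differences, the heat rises of SSA1, SSA3 and SSA4, the rapamycin rises of SSA1 and SSA4 and the SSA3 difference of mean changes kept their direction and call in every alternative run. With the slope in minutes, per 60 min, these were no longer called: SSA1 in heat (−0.90) and with rapamycin (0.76), SSA4 with rapamycin (1.28), and the mean changes of SSA2 (rapamycin 1.24, difference −1.60) and SSA3 (rapamycin 0.86). Rapamycin calls then numbered 768 for the mean change and 442 for the slope. Calls were also lost for the rapamycin change of SSA3 (0.86) with no filter or a mean change of at least 1 required, for the rapamycin slope of SSA4 with no filter (0.96) or edgeR (0.84), and for the heat slope of SSA1 after quantile normalization (−0.17). Exchanged untreated libraries took the calls of SSA2 with rapamycin (0.92) and in the difference (−0.96).

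Summing SSA1 and SSA2 turned the SSA2 heat change to 1.07 and left a rapamycin slope of 0.31 and a difference of −0.86, both not called. SSA2 at 30 min of heat turned from −0.10 to 0.068, 0.378 and 0.218 under equal totals, quantile normalization and the other untreated library. Requiring a mean change of at least 1 left 1816, 314 and 1355 called genes (heat, rapamycin, difference), and 1 shared baseline gave 3794 for the difference. The causes were not tested.

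Leaving out each treated library gave slopes of −0.73 to −0.35 (SSA1, heat), 0.19 to 0.67 (SSA1, rapamycin) and 0.10 to 1.22 (SSA4, rapamycin), and mean changes of −0.60 to −0.26 (SSA2, heat) and 0.81 to 0.96 (SSA3, rapamycin). Called slopes numbered 1440 to 2674 in heat, 224 to 1320 with rapamycin and 1440 to 2354 for the difference, where the main counts were 2651, 899 and 2323. The lowest counts came without the 15 min heat, the 120 min rapamycin and the 15 min rapamycin library. The rapamycin count was also 264, 448 and 390 without the 15, 30 and 90 min rapamycin libraries. These genes had at least 147 reads in each library. The lack of replicates limits all p-values.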
